A study of Homo sapiens with 6 samples.

Results

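The genes described here are 45 members of the Nodal, activin, BMP and TGF-beta pathways, parts of the TGF-beta superfamily read out by SMAD proteins. They were taken by name and not by a cut on measured values, but the list was chosen with earlier results of these data known. All 45 were found among the 48183 gene names of the table. By role they comprise 13 ligands and co-factors, 10 receptors, 7 secreted or membrane inhibitors, 8 SMADs, 3 nuclear partners and repressors, and 4 ID genes. Nodal, GDF3 and the activins bind type II receptors (ACVR2A, ACVR2B) and the type I receptor ACVR1B, Nodal and GDF3 with the help of the co-receptor TDGF1 (Cripto), and SMAD2 and SMAD3 then enter the nucleus with SMAD4 and partners such as FOXH1. BMPs bind BMPR1A, BMPR1B or ACVR1 together with BMPR2 or the activin type II receptors, and act through SMAD1, SMAD5 and SMAD9, with the ID genes as textbook targets. Primed human pluripotent stem cells are known to need activin or Nodal input to stay undifferentiated, and Nodal, LEFTY1, LEFTY2 and CER1 form the feedback circuit that patterns the early embryo.

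RNA was measured in 6 bulk libraries of human embryonic stem (ES) cells that carry EOS, a GFP reporter of the naive form of OCT4 regulation. Naive cells gave 4 libraries: 1 induced with VPA (valproic acid, a histone deacetylase inhibitor; "VPA naive"), 2 induced with AICAR (an activator of the kinase AMPK; "AICAR naive 1" and "AICAR naive 2"), all from the EOS line, and 1 from the CA-p38 EOS line, in which doxycycline (DOX) switches on a constitutively active p38 kinase ("CA-p38 naive"). Per the study, the naive samples were taken many passages after induction. AICAR was withdrawn early in this expansion and CA-p38 cells were expanded without DOX, while the time at which VPA was withdrawn is not stated. Primed cells gave 2 untreated libraries, 1 of each parental line ("EOS primed", "CA-p38 primed"). The labels name the line H1, the text of the study names H9, and whether the lines are single clones is not given in the sources used here. Naive cells were expanded in PXGL, a medium with the MEK inhibitor PD0325901, the tankyrase inhibitor XAV939, the protein kinase C inhibitor Go6983 and LIF. They were in general kept on mouse fibroblast feeders and were sorted for CD75 and SUSD2. The study also moved CA-p38 naive cells to culture without feeders, and does not give the feeder status of these libraries. Primed cells grew in StemFit AK02N on Matrigel without a sort. State, medium and sort, and feeders where used, therefore cannot be told apart in any naive against primed comparison. Nothing says that libraries of a state are independent cultures beyond their induction and line, so p-values measure the spread between these libraries. The AICAR libraries were, per the study, taken at consecutive passages, and whether they share a converted culture is not stated. If they do, the tests count that culture more than once. With the AICAR libraries summed, 15 members were higher and 24 lower in naive cells (adjusted p under 0.05, edgeR), the same counts as with them apart.

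Libraries held 46823699 to 54277064 counts. Same-state libraries differed well beyond counting noise (chi-square of at least 22.6 per gene), so none was the same library sequenced again. That value cannot show whether libraries came from separate cultures or were prepared from the same one. Checked against fixed marker lists, all 6 naive markers were higher in the naive libraries (summed 1575 to 1848 against 7.79 and 9.44 CPM; SUSD2 was a sort marker) and all 6 primed markers were lower (47.1 to 66.0 against 2458 and 3010 CPM). Hypoblast and endoderm markers summed to 36.1 to 45.2 CPM in naive and 155 and 183 CPM in primed libraries, with 1 of 7 higher and 5 lower. Fibroblast markers summed to 30.8 to 72.8 against 175 and 192 CPM (0 of 7 higher, 3 lower, FAP at most 0.0403 CPM), mesoderm markers to 8.43 to 12.3 against 20.01 and 22.7 CPM (2 of 5 higher, 1 lower), neural markers to 243 to 289 against 547 and 645 CPM (1 of 5 higher, 2 lower), and trophectoderm markers to 15.3 to 20.2 against 5.44 and 6.09 CPM (4 of 6 higher, 0 lower). The part of other cell types in the results below was not tested. In bulk RNA, fewer cells of a type and less RNA per cell cannot be told apart.

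The promoter sequences of NODAL and GDF3, which moved together, and of ID1 and ID3, which moved in opposite directions, are shown because the results turn on these genes. Each is the 250 bases before the start that RefSeq gives (GRCh38.p14), written 5′ to 3′ on the strand of the gene, and capitals mark CAGAC or GTCTG, the short motif bound by SMAD3 and SMAD4. They lie at chr10:70441682-70441931 (NODAL, minus strand), chr12:7695776-7696025 (GDF3, minus), chr20:31605039-31605288 (ID1, plus) and chr1:23559502-23559751 (ID3, minus). The RefSeq start of NODAL lies inside the longer span that GENCODE gives the gene.
NODAL: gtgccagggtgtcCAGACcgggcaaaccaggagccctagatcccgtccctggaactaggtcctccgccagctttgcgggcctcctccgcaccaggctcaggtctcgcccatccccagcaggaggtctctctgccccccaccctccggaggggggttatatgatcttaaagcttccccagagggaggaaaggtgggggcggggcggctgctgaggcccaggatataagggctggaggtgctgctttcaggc
GDF3: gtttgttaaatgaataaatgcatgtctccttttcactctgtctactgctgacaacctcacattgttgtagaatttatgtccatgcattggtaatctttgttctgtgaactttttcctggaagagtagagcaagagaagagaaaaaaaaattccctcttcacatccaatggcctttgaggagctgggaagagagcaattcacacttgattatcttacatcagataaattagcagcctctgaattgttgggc
ID1: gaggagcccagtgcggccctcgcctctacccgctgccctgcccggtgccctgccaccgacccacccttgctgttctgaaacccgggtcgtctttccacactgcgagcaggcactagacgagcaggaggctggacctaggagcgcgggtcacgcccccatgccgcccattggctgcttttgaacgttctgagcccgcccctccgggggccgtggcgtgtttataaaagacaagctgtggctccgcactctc
ID3: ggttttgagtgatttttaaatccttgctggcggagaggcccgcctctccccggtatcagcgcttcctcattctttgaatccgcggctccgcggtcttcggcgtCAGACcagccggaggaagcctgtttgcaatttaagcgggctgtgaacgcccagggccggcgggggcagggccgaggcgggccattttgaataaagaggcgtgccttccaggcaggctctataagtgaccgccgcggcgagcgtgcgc
CAGAC, on either strand, was in 38% of all 35116 promoter windows of this length. NODAL and ID3 each had 1 match and GDF3 and ID1 had none, so presence of these letters did not sort the genes by the direction in which they moved. The GC-rich motif GGCGCC of BMP-driven SMADs (its own reverse complement, in 16.4% of windows) and the FOXH1 motifs AATCCACA (0.709%) and AATACACA (0.666%, both strands) were in none of these 4 windows. A missing match says only that the letters are not in this window. Of the 45 genes, 36 had a promoter entry.

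LEFTY1 and LEFTY2, the secreted Nodal antagonists, moved in opposite directions, and they are near-identical neighbours on chromosome 1. Their coding sequences of 1098 bases differ at 31 bases (97.2% identity), and 47% of all 50-base windows are identical in both, up to a run of 300 bases. Reads from identical stretches could have been split between the genes or dropped.

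Of the 45 genes, 44 had enough counts to be tested, and 39 passed an adjusted p of 0.05 between naive and primed libraries (edgeR's quasi-likelihood test, Benjamini-Hochberg adjustment over 26497 genes): 15 were higher and 24 lower in naive cells. Across all genes tested 53.1% passed, 26% higher and 27% lower. Because well expressed genes pass more often, the same count was taken at a mean of at least 1 CPM, where 36 of 40 members passed against 65.5% of all genes. At least 2-fold changes that passed numbered 11 higher (18.6% of all genes) and 18 lower (16.7%). The median log2 fold change (naive over primed) was -0.71 over the members and 0.11 over all genes, and the median size of the change was 1.29 against 0.85. The members' median was -0.24 when at least 10 counts were asked of each library, which removes 5 members that are low in naive cells (19 were then lower). In 40 of the 44 the naive libraries did not overlap the primed ones, as did 64.9% of all genes. INHBB, a subunit of activin B, was not tested, with 0 to 17 counts in naive and 1 count in each primed library.

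**Figure D1:**
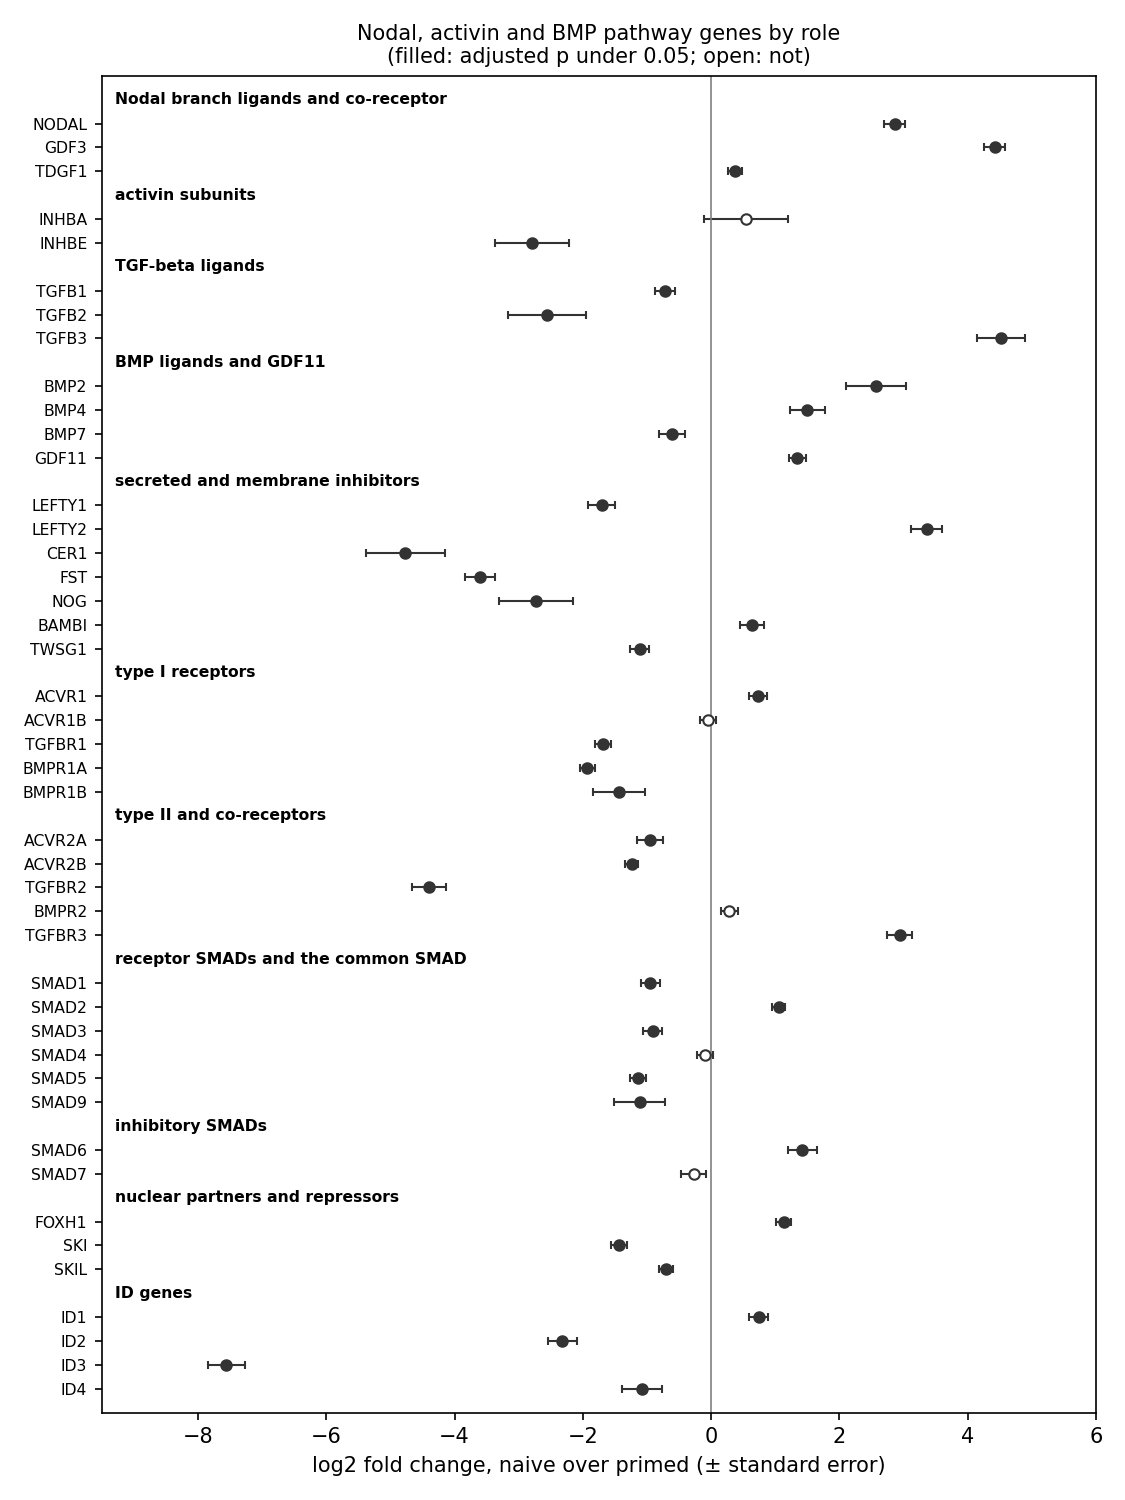
Log2 fold change (naive over primed, x axis) with its standard error for the 44 genes tested, grouped by role; filled points passed an adjusted p of 0.05 and open points did not. Every role with more than 2 tested members except the Nodal branch holds genes on both sides of 0, and ID3 (-7.56) and TGFB3 (4.52) are the ends of the range.

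All 3 genes of the Nodal branch, 2 ligands and their co-receptor, rose. NODAL, the founding ligand (chr10:70431936-70447951), stood at 123, 122, 123 and 139 CPM in VPA, CA-p38, AICAR 1 and AICAR 2 naive cells and at 14.1 and 20.8 CPM in EOS and CA-p38 primed cells. Every naive library was therefore far above both primed ones, and NODAL rose by a log2 fold change of 2.86 ± 0.16 (SE; adjusted p = 1.45e-08, edgeR). GDF3, a Nodal-like ligand that can also restrain BMPs (chr12:7689784-7695775), stood at 226, 207, 196 and 202 CPM against 7.94 and 11.4 CPM. It was the second largest increase among the members, 4.42 ± 0.17 (adjusted p = 4.09e-10, edgeR), and the naive libraries differed among themselves by at most 1.153-fold.

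TDGF1, the shared co-receptor, was the most abundant member per length in both states, at a mean of 275.5 CPM per kilobase of its canonical transcript in naive and 213 in primed cells. It ranged from 464 to 589 CPM in naive libraries (559, 589, 544 and 464) against 388 and 446 CPM in primed ones, and the lowest naive library was only just above the higher primed one. The log2 fold change was 0.37 ± 0.11 (adjusted p = 0.0135, edgeR). Adjusted p ran from 0.000399 to 0.151 over the alternatives, the highest without EOS primed, where the call was lost. The processed pseudogene TDGF1P3, which is closely related in sequence, held 64.2 to 98.3 CPM in naive and 68.9 and 60.1 CPM in primed libraries, and how reads were split between the 2 is uncertain.

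**Figure D2:**
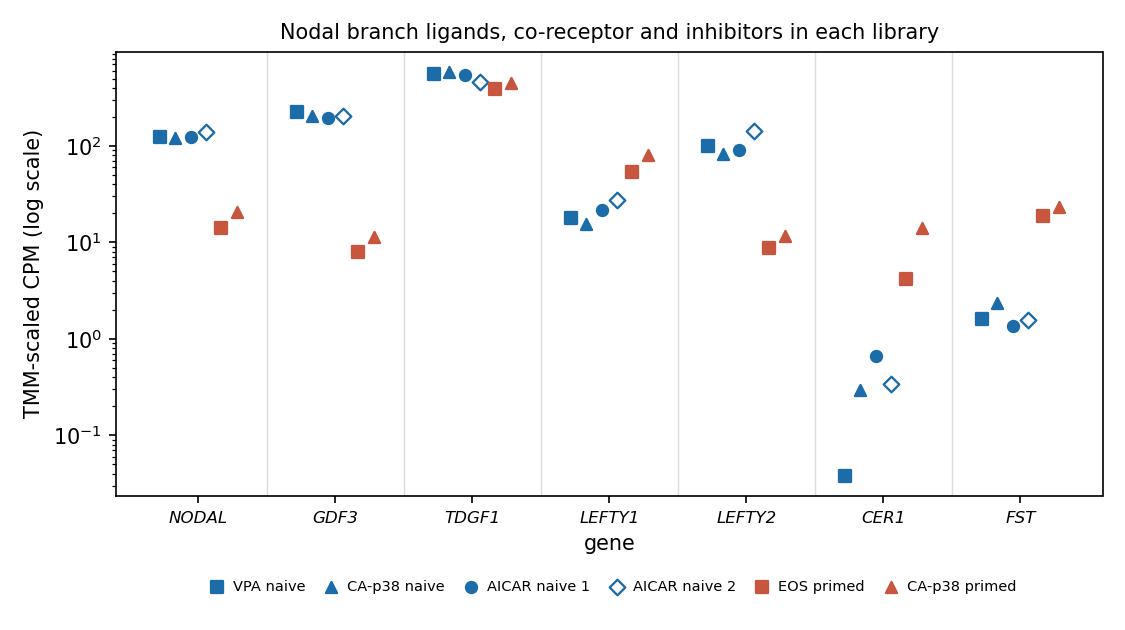
TMM-scaled CPM (log axis) of Nodal branch ligands, co-receptor and inhibitors, 1 point per library, blue for naive and red for primed. NODAL, GDF3 and LEFTY2 sit higher in all 4 naive libraries, LEFTY1, CER1 and FST sit lower, and TDGF1 is nearly level (539 against 417 CPM on average).

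The inhibitors of Nodal and activin split. LEFTY2 (chr1:225936598-225941383) stood at 101, 82.5, 89.8 and 145 CPM in VPA, CA-p38, AICAR 1 and AICAR 2 naive cells and at 8.77 and 11.5 CPM in primed cells, and rose by 3.36 ± 0.24 (adjusted p = 1.03e-07, edgeR). LEFTY1 (chr1:225886282-225911382) went the other way, at 17.8, 15.5, 21.4 and 27.3 CPM against 53.7 and 80.3 CPM, and fell by 1.71 ± 0.21 on the log2 scale (adjusted p = 1.43e-05, edgeR). The naive libraries thus held 4.19 to 5.67 LEFTY2 counts per LEFTY1 count, and the primed libraries 0.163 and 0.144. Summed, both genes came to 98.0 to 172 CPM in naive and 62.5 and 91.8 CPM in primed libraries, and their sum was higher in naive cells by 0.69 ± 0.21 (adjusted p = 0.0136, edgeR).

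CER1, a secreted antagonist of Nodal and BMPs that marks anterior endoderm, stood at 0.0382, 0.297, 0.663 and 0.342 CPM in naive and at 4.18 and 14.3 CPM in primed cells. All naive libraries were below both primed ones, with a count of 2 in VPA naive, and CER1 fell by 4.77 ± 0.61 (adjusted p = 2.41e-05, edgeR). The primed libraries differed 3.41-fold. In the same order, EOS and then CA-p38 primed, the endoderm markers FOXA2 (5.36 and 21.4 CPM) and SOX17 (1.56 and 4.87 CPM) and the mesendoderm gene EOMES (1.21 and 7.42 CPM) were also higher in CA-p38 primed, and their part in the CER1 result was not tested.

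FST (follistatin), which traps activins, was at 1.62, 2.34, 1.36 and 1.57 CPM in naive and 18.7 and 23.4 CPM in primed cells, a clear gap, and fell by 3.61 ± 0.23 on the log2 scale (adjusted p = 4.23e-08, edgeR). NOG (noggin), a BMP trap, was low in both states, at 0.306, 0.277, 0.110 and 0.101 CPM in naive and 1.82 and 0.838 CPM in primed cells. It fell by 2.73 ± 0.57 (adjusted p = 0.00138, edgeR), but over the alternatives adjusted p ran from 1.81e-05 to 0.0681, and the call was lost without EOS primed. TWSG1, a BMP-binding partner of chordin, stood at 17.7, 15.1, 15.6 and 13.3 CPM in naive against 34.1 and 32.7 CPM in primed cells, without overlap, and fell by 1.12 ± 0.15 (adjusted p = 2.93e-05, edgeR). BAMBI, a decoy receptor without a kinase, was at 24 to 38.5 CPM in naive and 21.6 and 22.8 CPM in primed cells and rose by 0.64 ± 0.19 (adjusted p = 0.0115, edgeR). The BAMBI call was lost without EOS primed (adjusted p = 0.0823, against a lowest value of 0.000358 over the alternatives).

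Ligand and inhibitor were also compared within each library, where scaling between libraries cancels. NODAL counts per count of both LEFTY genes were 1.04, 1.24, 1.11 and 0.809 in VPA, CA-p38, AICAR 1 and AICAR 2 naive cells and 0.225 and 0.226 in primed cells. GDF3 counts per NODAL count were 1.83, 1.70, 1.59 and 1.46 against 0.565 and 0.551, so the more abundant of the 2 ligands, by counts, was GDF3 in naive and NODAL in primed cells. For these, for LEFTY2 over LEFTY1, and for the 2 ratios of BMP and ID genes given below, naive libraries lay wholly above primed ones. An exact two-sided permutation test over the 6 libraries gave p = 0.0667 for each of the 5 ratios, also after adjustment over the 5, which is the smallest value that 4 against 2 libraries allow, so the design cannot reach 0.05.

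Activin subunits were scarce. INHBA, the activin A subunit, was at 0.262 to 0.752 CPM in naive and 0.243 and 0.348 CPM in primed cells, overlapped between states and did not pass (0.55 ± 0.65, adjusted p = 0.506, edgeR). INHBE, a subunit best known from liver, was at 0.110 to 0.554 against 2.83 and 1.82 CPM and fell by 2.79 ± 0.57 (adjusted p = 0.00114, edgeR).

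Of the TGF-beta ligands, 1 rose and 2 fell. TGFB3 (chr14:75958097-75983011) stood at 4.83, 5.62, 6.53 and 8.46 CPM in naive and at 0.283 and 0.266 CPM in primed cells, and its increase of 4.52 ± 0.38 (adjusted p = 4.48e-07, edgeR) was the largest among the members. TGFB1, the most abundant of the 3 per length in both states, was at 14.7 to 19.3 CPM against 25.9 and 30.4 CPM and fell by 0.72 ± 0.16 (adjusted p = 0.00207, edgeR). TGFB1 overlaps HNRNPUL1 on the opposite strand over 215 exon bases, HNRNPUL1 itself held 229 to 249 CPM in naive and 438 and 467 CPM in primed cells, and whether counting used strand is not given in the sources used here. TGFB2 was near the detection limit in naive cells (0.0573 to 0.322 CPM against 1.01 and 1.25 CPM) and fell by 2.56 ± 0.61 (adjusted p = 0.0032, edgeR). The 3 genes summed to 19.6 to 28.03 CPM in naive and 27.2 and 31.9 CPM in primed cells, so the totals overlapped while the makeup did not.

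Of the BMP ligands, BMP2 and BMP4 rose and BMP7 fell. BMP2 stood at 12.4, 14.3, 18.8 and 14.1 CPM in VPA, CA-p38, AICAR 1 and AICAR 2 naive cells, all above the 0.808 CPM of EOS primed and the 4.21 CPM of CA-p38 primed. The primed libraries differed 5.21-fold, and the log2 fold change of 2.57 ± 0.47 (adjusted p = 0.0005, edgeR) became 1.81 without EOS primed and 4.21 without CA-p38 primed, past the threshold both times. BMP4 was at 9.23, 12.6, 11.7 and 10.6 CPM against 2.69 and 5.11 CPM, without overlap, and rose by 1.497 ± 0.27 (adjusted p = 0.000464, edgeR). BMP7 was at 5.79 to 8.16 CPM in naive and 11.4 and 9.82 CPM in primed cells and fell by 0.61 ± 0.21 (adjusted p = 0.0242, edgeR). That call was lost with scaling to library totals and without AICAR naive 1, EOS primed or CA-p38 primed (adjusted p from 0.00585 to 0.167 over the alternatives).

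Counts of the 3 BMPs together per NOG count were 89.7, 124, 334 and 326 in VPA, CA-p38, AICAR 1 and AICAR 2 naive cells and 8.21 and 22.8 in primed cells. These ratios rest on few NOG counts and vary between libraries of 1 state by more than 2-fold. GDF11, an activin-like ligand, stood at 87.4, 78.0, 86.9 and 92.8 CPM in naive and 29.9 and 38.1 CPM in primed cells and rose by 1.34 ± 0.13 (adjusted p = 2.46e-06, edgeR). It shares 378 exon bases with SARNP on the opposite strand, which held 4782 to 6006 counts in naive and 6036 and 6168 in primed libraries.

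**Figure D3:**
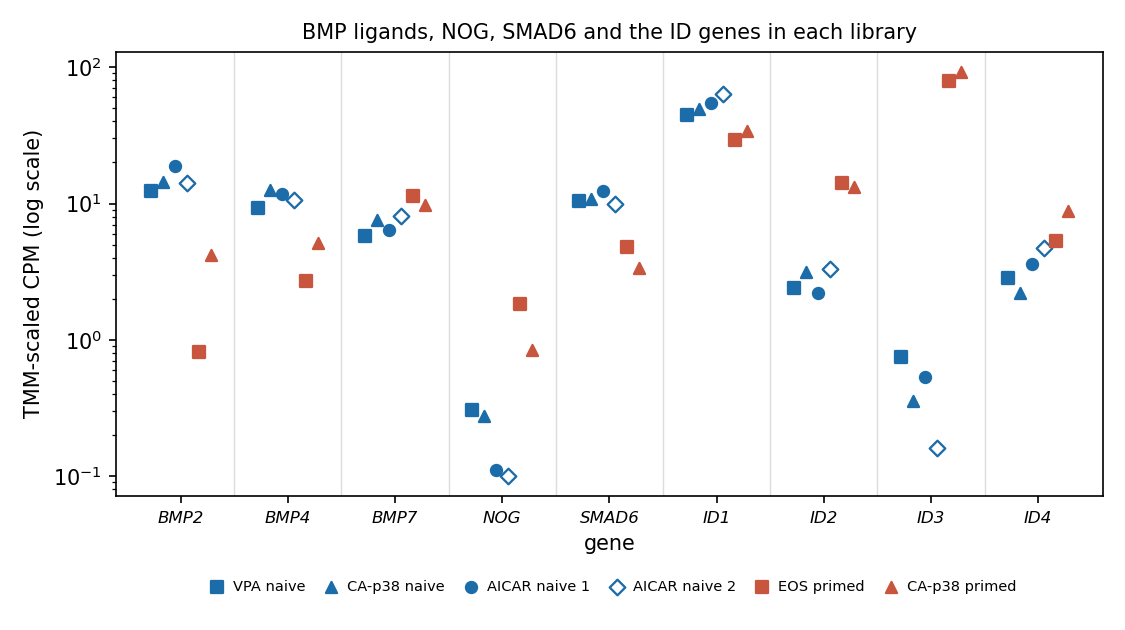
TMM-scaled CPM (log axis) of BMP ligands, NOG, SMAD6 and the ID genes, 1 point per library, blue for naive and red for primed. ID1 stays within 29.3 to 63.6 CPM in all 6 libraries, while ID3 is at 0.745 CPM or less in naive and 79.3 CPM or more in primed libraries.

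Of the 10 receptors, 6 fell, 2 rose and 2 did not pass, beside 27% lower and 26% higher over all genes. The widest gap was in TGFBR2, the receptor that TGF-beta ligands bind first (chr3:30606601-30694142), at 0.631, 0.614, 1.18 and 0.906 CPM in naive and 17.8 and 17.4 CPM in primed cells. It fell by 4.40 ± 0.27 on the log2 scale (adjusted p = 2.4e-08, edgeR). Its partner TGFBR1 stood at 25.8, 22.9, 21.2 and 23.3 CPM against 70.6 and 79.8 CPM and fell by 1.69 ± 0.12 (adjusted p = 1.13e-07, edgeR). TGFBR3 (betaglycan), a co-receptor that presents TGF-beta and inhibin, went the other way, at 41.9, 43.6, 55.7 and 40.9 CPM in naive and 5.11 and 6.75 CPM in primed cells. It rose by 2.94 ± 0.19 (adjusted p = 4.59e-08, edgeR).

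The activin and Nodal receptors moved less. ACVR2B was at 51.9, 55.8, 55.6 and 56.8 CPM in naive and 128 and 132 CPM in primed cells, tight within each state, and fell by 1.24 ± 0.10 (adjusted p = 2.82e-07, edgeR). ACVR2A was at 4.80 to 6.26 against 10 and 10.8 CPM and fell by 0.96 ± 0.20 (adjusted p = 0.00138, edgeR), and it overlaps ORC4 on the opposite strand over 431 exon bases. ACVR1B, the type I receptor of the branch, stood at 32.6 to 35.9 CPM in naive and 38.4 and 33.6 CPM in primed cells, overlapped and did not pass (-0.05 ± 0.12, adjusted p = 0.755, edgeR). The sign of that value changed with the scaling.

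Among BMP receptors, BMPR1A stood at 26.5, 27.1, 27.6 and 29.8 CPM in naive and 92.8 and 118 CPM in primed cells and fell by 1.93 ± 0.12 (adjusted p = 3.23e-08, edgeR). BMPR1B was far lower in level, at 0.879, 0.673, 0.626 and 1.33 CPM against 3.15 and 1.60 CPM, and the highest naive library came close to the lower primed one. It fell by 1.44 ± 0.41 (adjusted p = 0.00953, edgeR), with adjusted p from 0.00199 to 0.209 over the alternatives, the highest without EOS primed. ACVR1 was at 27.9 to 35.6 CPM against 21.1 and 18.2 CPM and rose by 0.73 ± 0.15 (adjusted p = 0.000992, edgeR). BMPR2, at 36.4 to 45.4 against 33.8 and 29.9 CPM, did not overlap but did not pass (0.29 ± 0.14, adjusted p = 0.0996, edgeR), and passed only with library totals or limma-voom (lowest adjusted p = 0.0419, highest 0.393).

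**Figure D4:**
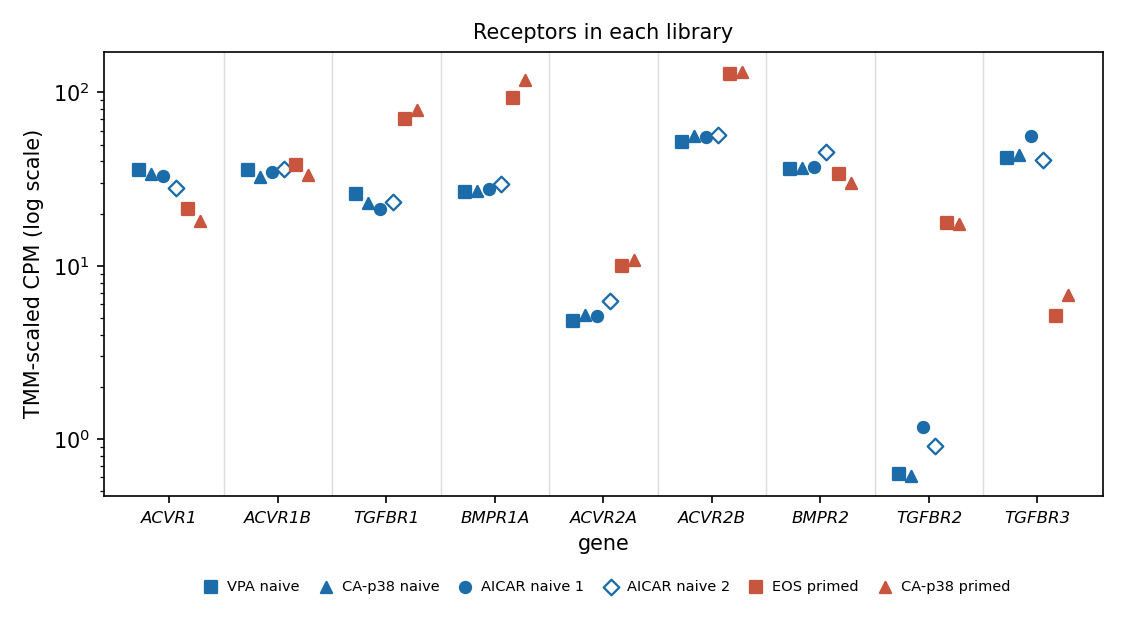
TMM-scaled CPM (log axis) of 9 receptors (BMPR1B, at 3.15 CPM or less, is left out), 1 point per library, blue for naive and red for primed. TGFBR2, BMPR1A and TGFBR1 sit lower and TGFBR3 sits higher in all 4 naive libraries, and ACVR1B overlaps between the states.

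The SMADs that carry the Nodal and activin signal moved in opposite directions. SMAD2 stood at 140, 148, 149 and 154 CPM in VPA, CA-p38, AICAR 1 and AICAR 2 naive cells and at 67.7 and 74.5 CPM in primed cells, and rose by 1.06 ± 0.10 (adjusted p = 2.15e-06, edgeR). SMAD3 was at 15.9 to 21.4 CPM against 34.5 and 32.0 CPM and fell by 0.91 ± 0.15 (adjusted p = 0.000229, edgeR). SMAD4, the common partner, overlapped between states at 53.4 to 67.5 against 59.9 and 68.4 CPM and did not pass (-0.09 ± 0.12, adjusted p = 0.567, edgeR).

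All 3 SMADs of the BMP branch fell. SMAD5 was at 32.0, 39.4, 31.9 and 37.8 CPM in naive and 72.3 and 82.5 CPM in primed cells, and fell by 1.13 ± 0.13 on the log2 scale (adjusted p = 7e-06, edgeR). SMAD1 was at 14.2 to 17.9 against 29.6 and 31.4 CPM and fell by 0.95 ± 0.15 (adjusted p = 0.000134, edgeR). SMAD9 was near 1 CPM, at 0.631, 0.871, 0.755 and 1.23 CPM against 2.41 and 1.37 CPM, and its fall of 1.12 ± 0.39 (adjusted p = 0.0295, edgeR) was lost in 5 of 15 alternatives, among them leaving out VPA, CA-p38 or AICAR 1 naive or EOS primed (adjusted p from 0.0175 to 0.334).

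Of the inhibitory SMADs, SMAD6, which acts mainly on BMP signals, stood at 10.5, 10.7, 12.4 and 9.93 CPM in naive and 4.77 and 3.35 CPM in primed cells, and rose by 1.42 ± 0.22 (adjusted p = 0.000149, edgeR). SMAD7, which blocks both branches, overlapped at 18.7 to 31.3 against 25.3 and 33.8 CPM and did not pass (-0.27 ± 0.19, adjusted p = 0.255, edgeR). FOXH1, the DNA-binding partner of SMAD2 in Nodal responses, stood at 109, 111, 110.2 and 93.4 CPM in naive and 48.5 and 47.9 CPM in primed cells and rose by 1.13 ± 0.12 (adjusted p = 2.96e-06, edgeR). Its gene shares 791 exon bases with KIFC2 on the opposite strand, and KIFC2 rose as well, at 56.8 to 83.6 CPM against 12.8 and 11.4 CPM (2.58, adjusted p = 8.99e-08, edgeR), so without strand the 2 cannot be fully told apart.

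The SMAD repressors fell. SKI stood at 37.96, 46.1, 48.9 and 49.9 CPM in naive and 117 and 132 CPM in primed cells, and fell by 1.44 ± 0.12 (adjusted p = 6.21e-07, edgeR). SKIL (SnoN), a feedback target of SMAD2 and SMAD3, was at 75.4 to 92.6 CPM against 131 and 151 CPM and fell by 0.71 ± 0.11 (adjusted p = 0.000166, edgeR).

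The ID genes, which encode dimerization partners that block basic helix-loop-helix factors, did not move as 1 group. ID3 (chr1:23557926-23559501) stood at 0.745, 0.356, 0.534 and 0.161 CPM in VPA, CA-p38, AICAR 1 and AICAR 2 naive cells and at 79.3 and 92.7 CPM in primed cells. It fell by 7.56 ± 0.29 on the log2 scale (adjusted p = 4.08e-10, edgeR), the widest change of any member. ID1 (chr20:31605283-31606515) was at 44.8 to 63.6 CPM (44.8, 49.4, 54.3 and 63.6) against 29.3 and 34.1 CPM and rose by 0.74 ± 0.15 (adjusted p = 0.00118, edgeR). Per ID3 count there were 60.1, 139, 102 and 395 ID1 counts in the naive libraries and 0.370 and 0.368 in the primed ones.

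The table lists ID3 under 2 identifiers, 1 on the chromosome and 1 other, with nearly equal counts (1979 and 1945 in EOS primed, for example), which were summed here. Taken apart, the first fell by 7.33 and the other fell by 7.86 on the log2 scale. ID2 stood at 2.41, 3.13, 2.19 and 3.28 CPM in naive and 14.1 and 13.3 CPM in primed cells and fell by 2.32 ± 0.22 (adjusted p = 1.83e-06, edgeR). ID4 was at 2.85, 2.197, 3.57 and 4.75 CPM against 5.27 and 8.81 CPM, with AICAR 2 close to EOS primed, and fell by 1.08 ± 0.32 (adjusted p = 0.0117, edgeR), a call that was lost without CA-p38 primed (adjusted p = 0.224, against a lowest value of 0.000989). Summed, the 4 ID genes came to 50.8 to 71.8 CPM in naive and 128 and 149 CPM in primed cells. ID1 made up 88.2% to 89.7% of that sum in naive and 22.9% in both primed libraries, and ID3 0.225% to 1.47% against 62.0% and 62.2%.

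Levels of different genes can be set side by side only per length. Per kilobase of canonical transcript, the highest mean levels in naive cells after TDGF1 were GDF3 (168 CPM per kilobase), NODAL (61.5), ID1 (53.9), FOXH1 (52.4) and LEFTY2 (51.7). In primed cells they were ID3 (90.5), LEFTY1 (41.2), ID1 (32.3) and FOXH1 (23.9). The order within each of these lists was not tested.

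The induction routes were then read 1 by 1, each against the primed library of its own parental line. AICAR and VPA share EOS primed as their reference, and each route has 1 or 2 libraries, so there is no test. Among the 40 members of at least 1 CPM on average, 12 were at least 2-fold higher and 15 at least 2-fold lower with AICAR (20.5% and 19.8% of all 18070 such genes). With VPA 11 were higher and 15 lower (21.2% and 19.9%), and with CA-p38 10 were higher and 15 lower (20.4% and 20.1%).

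Most members differed little between routes. The log2 ratio of NODAL was 3.21 with AICAR, 3.13 with VPA and 2.55 with CA-p38, and that of GDF3 4.64, 4.83 and 4.18. For TGFBR2 it was -4.09, -4.79 and -4.81. ID3 spread more widely, at -8.02, -6.71 and -7.98, on only 8 to 39 counts in each naive library. The widest spreads were in CER1 (-3.11, -6.46 and -5.54), BMP2 (4.32, 3.92 and 1.76) and ID4 (-0.36, -0.89 and -2.00). For BMP2 and CER1 the primed references themselves stood apart: they were the only 2 of the 40 members at least 2-fold higher in CA-p38 primed than in EOS primed (1.9% of all genes), and 0 were at least 2-fold lower (3.23%). The widest gap for CER1, between AICAR and VPA, was over the same EOS primed library. It rested on CER1 counts of 2 in VPA naive and of 36 and 17 in AICAR naive 1 and 2. The 95% counting interval of the VPA ratio ran from -9.83 to -4.90. LEFTY1 was lower by every route (-1.15, -1.59 and -2.37), and the 95% counting intervals of its single-library ratios, from -1.07 to -0.88 in AICAR naive 2 and from -2.49 to -2.26 in CA-p38 naive, did not meet. Such intervals cover counting error only. These 2 LEFTY1 ratios also have different primed references, and LEFTY1 was 1.49-fold higher in CA-p38 primed than in EOS primed. For ID4 the references differed 1.67-fold in the same direction. How much of either spread lies in the references was not tested.

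**Figure D5:**
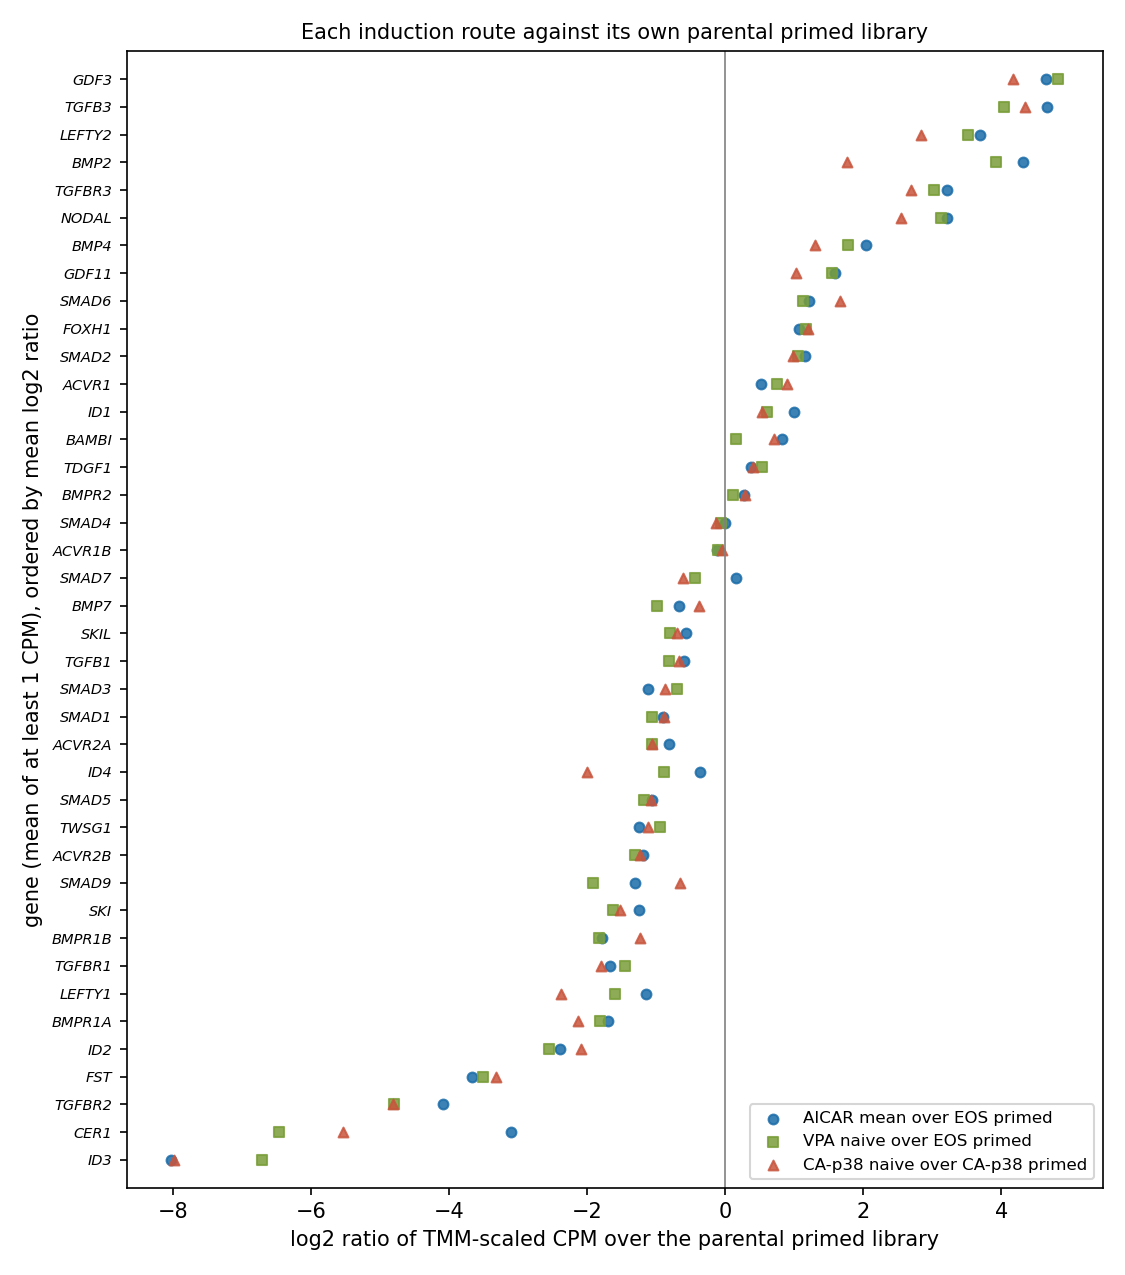
Log2 ratio of TMM-scaled CPM over the parental primed library (x axis) for the 40 members with a mean of at least 1 CPM (y axis, ordered by their mean ratio), with 1 symbol per induction route. The 3 symbols lie close together for most genes and are widest apart for CER1, BMP2 and ID4; SMAD4 and SMAD7 have symbols on both sides of 0.

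A wider list of 69 superfamily genes outside the members (other ligands, traps, latency proteins, ubiquitin ligases and SMAD cofactors) gave 58 tested genes, of which 16 were higher, 23 lower and 19 did not pass. Of the tested genes 27.6% were thus higher and 39.7% lower, beside 26% and 27% of all genes, and the median log2 fold change was -0.31 against 0.11. Among those of at least 5 CPM, a strong increase was in GDF15, a stress-induced ligand (45.8 to 52.3 CPM in naive against 1.90 and 1.104 CPM in primed cells). Others were in LTBP2, grouped by name with the latent TGF-beta binding proteins (10.1 to 19.5 against 2.57 and 3.13 CPM), and NRROS, a partner of latent TGF-beta (16.9 to 20.6 against 4.71 and 4.48 CPM). The 4 strongest decreases were in CHRDL1, a BMP trap (0.0990 to 0.242 against 37.7 and 32.1 CPM), FSTL1, a follistatin-related protein (20.5 to 25.6 against 278 and 255 CPM), NEDD4L, a ubiquitin ligase for phosphorylated SMAD2 and SMAD3 (10.7 to 11.5 against 78.2 and 79.3 CPM), and TGIF2, a repressor of SMAD-bound genes (8.73 to 13.6 against 59.1 and 60.9 CPM). GDF15 rose by 5.04 ± 0.22 (adjusted p = 1.25e-09, edgeR) and CHRDL1 fell by 7.63 ± 0.27 on the log2 scale (adjusted p = 2.14e-10, edgeR).

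Of 20 genes often described as SMAD outputs, 10 were higher, 6 lower and 4 did not pass, beside 26% higher and 27% lower over all genes, and the median log2 fold change was 1.09 against 0.11. The named increases were in TBX3 (18.8 to 31.2 CPM against 0.0606 and 0.470 CPM), CDKN1A (33.8 to 45.4 against 6.85 and 5.68 CPM) and NANOG (223 to 242 against 84.8 and 98.0 CPM). MYC (3.69 to 14.8 against 54.4 and 71.6 CPM), COL1A1 (9.53 to 27.99 against 59.96 and 59.7 CPM) and CCN2 (22.7 to 32.4 against 63.2 and 88.0 CPM) were lower. NANOG rose by 1.33 ± 0.11 (adjusted p = 3.1e-07, edgeR). COL1A1 is also 1 of the fibroblast markers counted above. All of these genes have inputs other than SMADs, and the list was chosen with earlier results of these data known.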

How the data were processed

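Polyadenylated RNA of 6 libraries (4 naive, 2 primed) was sequenced, and groups were taken from the sample labels. The deposited values are whole-number read counts per Ensembl gene, without normalization. Per the labels and methods, the authors trimmed adapters with cutadapt 1.15 and Trim Galore 0.4.4, mapped reads with Bowtie2 to the cDNA and noncoding RNA of Ensembl release 100 (GRCh38), and dropped alignments of mapping quality under 1, so genes with near-identical copies lose or share reads. Whether counting used strand is not given in the sources used here. Of 61222 features, 26 spike-ins were left out, counts of identifiers that share a name were summed, and 23 columns of other studies were not used.

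State was tested with edgeR 4.0.16 in R 4.3.3 (quasi-likelihood, TMM scaling, filterByExpr, no covariates), with p-values adjusted by Benjamini-Hochberg over every gene tested, a threshold of 0.05, and standard errors from the same fit. CPM values are TMM-scaled, with 3 counts (0.0553 to 0.0641 CPM unscaled) as the detection limit. Ratios between members were tested by exact permutation. Single-library ratios used a prior count of 0.5 and 95% Clopper-Pearson intervals. Alternatives covered other scalings, DESeq2 1.42.0, limma-voom (limma 3.58.1), count filters, the parental line as a term, AICAR libraries summed, identifiers apart, the LEFTY genes summed, and each library left out. The fits were tested on simulated data. Positions came from GENCODE release 44 (GRCh38), and promoters from RefSeq. Other steps ran in Python 3.11.15 (matplotlib 3.10.9, scipy 1.17.1, pandas 2.3.3).

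All 45 members are named. Values per library are given for those past the threshold with at least a 2-fold change and a mean of at least 1 CPM, and for NODAL, LEFTY1, LEFTY2, TDGF1 and GDF3. From the wider and output lists, up to 4 genes in each direction of at least 5 CPM are named, and some items that the rule would name are not reported here. The members and lists were chosen with earlier results of these data known. EOMES, FOXA2, SOX17 and the overlapping genes were singled out after their values were seen. The labels give no batch.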

Additional observations from a re-analysis of the deposited data

Results flagged for a closer look

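In 4 of 44 members 1 naive library stood apart from the other 3, with a gap wide for their whole range, where chance gives about 1 in 20, or 2.2 members. NODAL was at 138.9 CPM in AICAR naive 2 against 121.5 to 123.4 CPM in the other naive libraries. BMPR2 was at 45.4 CPM in AICAR naive 2 against 36.4 to 37.0 CPM. FOXH1 was at 93.42 CPM in AICAR naive 2 against 109.0 to 110.5 CPM. BAMBI was at 24 CPM in VPA naive against 37.4 to 38.5 CPM, close to the primed libraries (21.6 and 22.8 CPM).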

How the results depend on the processing

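Of 44 members, 30 had the same call and direction under all 15 alternatives. Another 4 (INHBE, TGFB2, CER1 and ID3) had it under the 14 that gave them a value, and 8 lost or gained a call. ACVR1B and SMAD4, neither past the threshold, changed sign. ACVR1B was at 0.048 with library totals, 0.051 with limma-voom and 0.036 without EOS primed, and at -0.13 without CA-p38 primed. SMAD4 was at 0.014 with library totals, 0.0026 with limma-voom and 0.016 without CA-p38 primed, and at -0.19 without EOS primed. Counting LEFTY1 and LEFTY2 as 1 gene gave a rise of 0.695 (log2), where LEFTY1 alone fell and LEFTY2 alone rose. Leaving out each library in turn left 13 to 15 members higher and 20 to 24 lower. With 1 primed library left, it is assumed to vary like the naive libraries. A minimum of 10 counts in each library, which drops genes low in either state, removed INHBE, TGFB2, CER1, ID3 and NOG, left 15 members higher and 19 lower, and moved the members' median log2 fold change from -0.71 to -0.24. Of 20 output genes, 10 were higher, but 6 under that minimum. Scaling to library totals moved the median of all genes from 0.11 to 0.20, and the share of calls that were higher from 49.0% to 53.97%. The labels give no replicate numbers that naive and primed libraries share. Matching them by parental line, as a term in the fit, left the member counts at 15 and 24. In naive cells CER1, NOG, TGFB2, INHBE, INHBA and ID3 rest on few counts, which limits the precision of their folds.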

Other observations

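Further genes of the wider list are given here, chosen after their values were seen. Of the LTBP, LRRC32, NRROS, FURIN and PCSK genes of that list, LTBP2, LTBP3, LTBP4, LRRC32, NRROS, FURIN and PCSK6 were higher in naive cells. LTBP1 was lower (adjusted p under 0.05 for all of these, edgeR), and PCSK5 did not pass. LTBP1, which tethers latent TGF-beta to matrix, was at 7.81 to 11 CPM in naive and 48.4 and 54.8 CPM in primed cells and fell by 2.40 ± 0.16 on the log2 scale (adjusted p = 4.31e-08, edgeR). LTBP4 was at 76.3 to 86.5 CPM against 61.9 and 38.7 CPM and rose by 0.70 ± 0.16 (adjusted p = 0.00281, edgeR). FURIN, a protease that cleaves Nodal, BMP and TGF-beta precursors, was at 82.0 to 92.8 CPM against 53.7 and 56.3 CPM and rose by 0.63 ± 0.11 (adjusted p = 0.000315, edgeR). The type I receptor ACVRL1 was at 3.84 to 6.31 CPM against 0.424 and 0.184 CPM and rose by 4.10 ± 0.41 (adjusted p = 2.87e-06, edgeR).

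Whether the naive against primed difference differs between the CA-p38 EOS and EOS lines was asked with an interaction term, chosen after seeing the data. No member passed after adjustment over all genes tested (edgeR). The widest term among the members was that of BMP2, whose difference was lower by 2.46 ± 0.52 on the log2 scale in the CA-p38 line. This rests on 1 library of each state in that line, and on 1 primed library in the other.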
